A study of Homo sapiens with 24 samples.

Results

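Genes of the mesenchymal state were followed in HGC27, an established human gastric carcinoma line, through 5 of the 61578 gene entries of the deposited count tables. The entries were picked by name, with earlier results of these data known: VIM-AS1, CD44-AS1, ENSG00000232821, ZEB2-AS1 and CLMAT3, which overlap VIM, CD44, TWIST1, ZEB2 and SPARC on the opposite strand. RNA came from 8 groups of 3 replicates. Parental cells and the line SGCTRL are wild type for TMEM97 per the labels, SGCTRL with a control guide, and SG12 and SG21 are labelled as knockouts of TMEM97, a membrane protein of cholesterol handling also known as the sigma-2 receptor. Each of the 4 spent 3 days in a medium labelled FBS or LPDS, abbreviations that the labels do not spell out and that usually mean fetal bovine serum and lipoprotein-deficient serum. Nothing states where the guides cut, or whether a line is 1 clone. What was separate between replicates, called biological samples in the design, is not said, so a p-value here speaks only of the spread among libraries.

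Epithelial cells that turn mesenchymal lose their junctions, change shape and become motile. Transcription factors of the TWIST and ZEB families repress epithelial genes in this switch and are used, with the filament protein vimentin, to recognise it. CD44 is a surface receptor for hyaluronan that is often used as a marker of invasive or stem-like carcinoma cells, gastric ones included, and SPARC is a secreted glycoprotein that binds collagen.

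The library kit preserves strand, and most counts sit on the strand opposite to the gene whose name they carry, so each gene was read through the entry on its other strand. Levels are in CPM, the usual depth scaling of read counts, here relative to all reads on genes of a library. Over the 24 libraries VIM-AS1 averaged 23667 CPM and the entry named VIM 112 CPM. The corresponding pair of means was 212 and 3.57 CPM for CD44, 56.5 and 3.61 CPM for ZEB2, 107 and 4.75 CPM for SPARC, but 58.0 and 42.7 CPM for TWIST1. The TWIST1 reading is therefore the least certain, and where genes overlap their reads cannot be told apart fully.

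In GRCh38 with GENCODE release 29, VIM-AS1 (chromosome 10, 17214239 to 17229985, minus strand) shares 641 exon bases with VIM, 563 of them coding. CD44-AS1 (chromosome 11, 35210343 to 35214985, minus strand) lies inside CD44 and shares 84 exon bases with it, 63 of them in 1 coding exon that 11 of 26 coding transcripts carry. ENSG00000232821 (chromosome 7, 19112474 to 19114271, plus strand) shares 141 exon bases with TWIST1, none of them in its coding transcript and all in longer transcripts marked for nonsense-mediated decay. ZEB2-AS1 (chromosome 2, 144517978 to 144521477, plus strand) shares 1299 exon bases with ZEB2, mostly 5′ UTR, and overlaps 15 of 31 coding transcripts. CLMAT3 (chromosome 5, 151676945 to 151724782, plus strand) shares 381 exon bases with SPARC, of which those in coding transcripts are all UTR. VIM has a further opposite-strand entry, ENSG00000234961 (chromosome 10, 17233325 to 17234833, minus strand), which shares 619 exon bases with later VIM exons, 342 of them coding, and averaged 18303 CPM. It was added after the levels had been seen. Each overlap samples part of a gene, so the levels of different genes are not compared.

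Parts of the coding sequence that these entries overlap are shown. Under VIM-AS1 it is the start of the VIM reading frame (chr10:17229423-17229572, plus strand, start codon in capitals). Under ENSG00000234961 it is a stretch of VIM coding sequence (chr10:17233770-17233898, plus strand). Under CD44-AS1 it is the CD44 exon (chr11:35214852-35214914, plus strand). Counts per entry do not say where in an entry the reads fell. CD44-AS1 has 587 exon bases, all within the bounds of CD44, and only 84 of them overlap CD44 exons. They are read 5′ to 3′ from the GENCODE release 29 transcripts.
VIM, under VIM-AS1: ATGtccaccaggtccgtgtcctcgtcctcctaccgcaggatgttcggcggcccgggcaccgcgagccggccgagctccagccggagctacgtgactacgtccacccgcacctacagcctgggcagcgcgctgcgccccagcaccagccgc
VIM, under ENSG00000234961: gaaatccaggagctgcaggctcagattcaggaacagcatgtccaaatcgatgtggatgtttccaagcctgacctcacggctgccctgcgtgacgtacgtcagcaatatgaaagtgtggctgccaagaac
CD44, under CD44-AS1: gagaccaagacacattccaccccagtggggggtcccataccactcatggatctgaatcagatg

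Between 2399212 and 5543678 reads per library were counted to gene entries, 94.3% to 94.6% of the uniquely aligned reads fell on no gene, and 20159 to 24448 entries had at least 1 read. The 5 entries held between 63 reads (TWIST1, in SG21 in LPDS) and 129308 reads (VIM, in SGCTRL in LPDS) in a library. Ambiguous reads, as a share of gene reads, divided the libraries, with 2.1% to 2.24% in 8 (the 6 SGCTRL libraries and replicates 2 and 3 of SG21 under LPDS) and 2.58% to 3.15% in the remaining 16. All 6 libraries of SG21 against SG12 in FBS are on the same side of this split. TMEM97, read through IFT20 over 361 bases, lay at 48.7 to 56.7 CPM in SG12 and 73.8 to 77.4 CPM in SG21 in FBS, below the 88.8 to 139.5 CPM of the wild-type groups in FBS. In LPDS it lay at 176.3 to 207.8 CPM in SG12, above every wild-type library of that medium (139.8 to 170.3 CPM), and at 119.4 to 136.6 CPM in SG21, below them. That overlap does not check an edit elsewhere in the gene. The label Epithelial could not be checked on these files, because none of 10 epithelial markers had an opposite-strand entry above 6.02 CPM, a bound under which 90% of protein-coding entries lie that face no other gene. The same held for the 8 gastric, 6 endothelial and 7 leukocyte markers, while 3 of 11 fibroblast markers were measured, at a summed 349.4 to 935.3 CPM per library.

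The main pattern was that the entries read as VIM, CD44 and TWIST1 were low in SG21 and the one read as ZEB2 was high in SG12. Gene names in these results stand for the opposite-strand entries unless the own name is stated. That of TWIST1 shares 141 of its 1711 exon bases with the gene and none with the coding transcript, so coding TWIST1 RNA was not read. In SG21 against SG12, 4 of the 5 entries were lower in FBS (VIM, CD44, TWIST1 and ZEB2), where 13% of the 12822 entries tested were called lower, and the same 4 were lower in LPDS, where 8.89% were. SPARC passed the test in neither medium. A call is an adjusted p under 0.05 in edgeR's quasi-likelihood test with Benjamini-Hochberg adjustment over all entries tested, and fold changes are log2 with their SE. The median log2 fold change of the 5 was -0.78 in FBS and -1.11 in LPDS, beside 0.02 and 0.01 over all entries tested. In bulk RNA, fewer cells with a transcript and less of it per cell cannot be told apart. The entries under the own names of the 10 epithelial markers, which hold leaked or antisense reads, summed to 19.6 to 33.6 CPM in SG12 and 47.3 to 67.0 CPM in SG21 in FBS, and to 53.8 to 62.0 and 59.9 to 74.3 CPM in LPDS. Own-name sums of other marker lists moved too. In FBS those of the leukocyte markers were 44.5 to 46.6 CPM in SG12 and 70.3 to 88.4 CPM in SG21. Endothelial sums were 0 to 1.02 and 2.33 to 4.30 CPM. The gastric sums overlapped, and the fibroblast sums were lower in SG21 (51.0 to 75.1 CPM, against 88.4 to 184.3 CPM in SG12). The rise in SG21 was thus not particular to epithelial markers, and the part of these reads in the result was not tested.

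**Figure D1:**
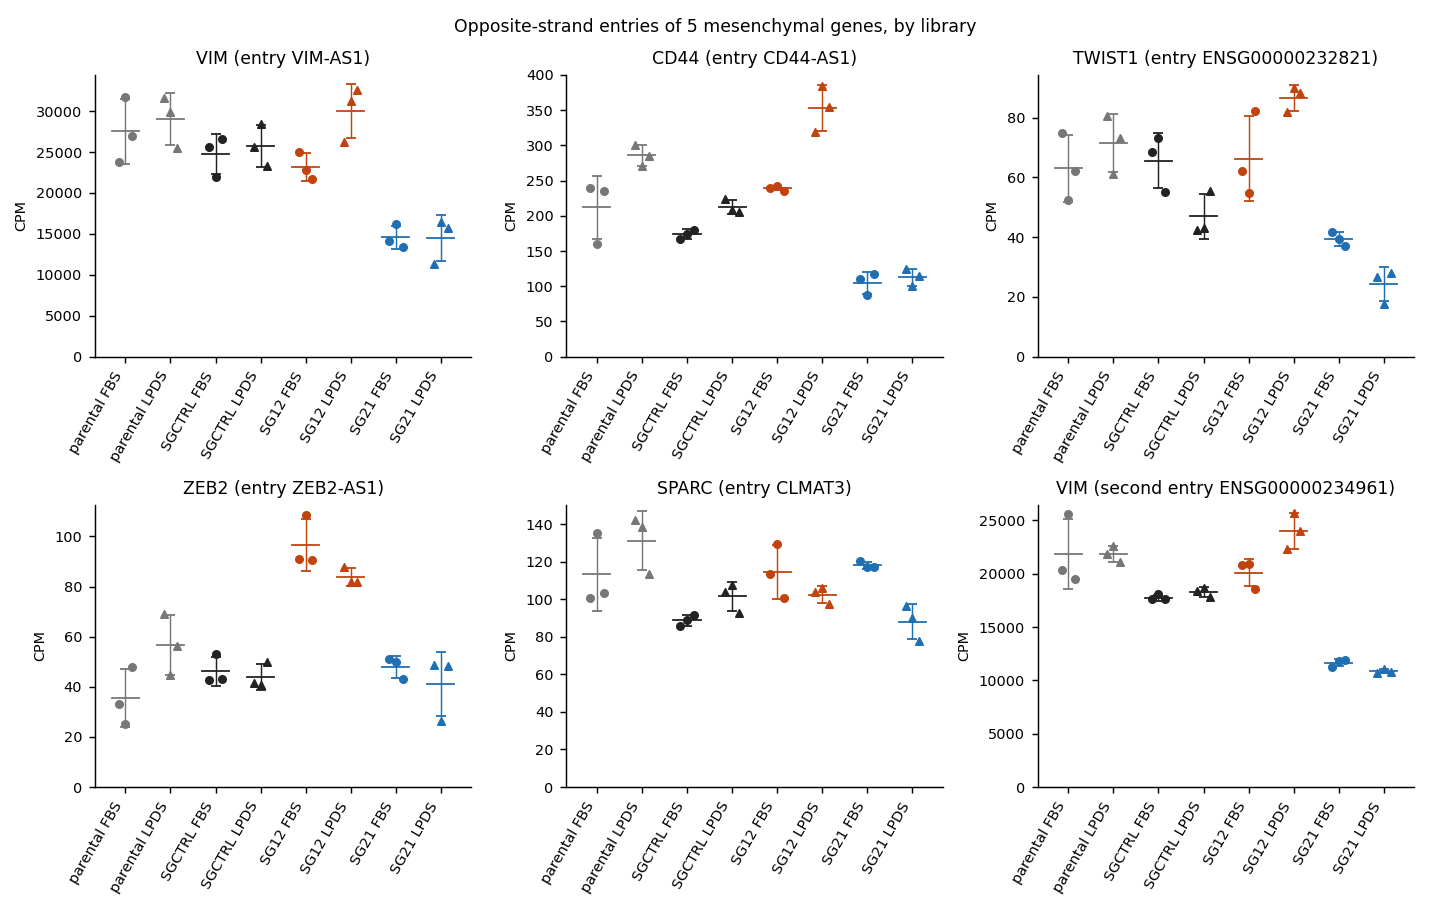
CPM of each opposite-strand entry (vertical axes, linear from 0) in the 24 libraries by line and medium (horizontal axes; circles FBS, triangles LPDS; horizontal bars are means, error bars the SD of 3 libraries). The SG21 libraries lie lowest for VIM (both entries), CD44 and TWIST1, the SG12 libraries highest for ZEB2, and the groups overlap widely for SPARC.

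VIM encodes vimentin, the intermediate filament of mesenchymal cells. In FBS, VIM-AS1 stood at 25018, 22820 and 21729 CPM in the replicates of SG12 and at 14175, 16185 and 13433 CPM in those of SG21. Its LPDS values were 26246, 31191 and 32614 CPM in SG12 and 11332, 16502 and 15728 CPM in SG21. Every SG21 library was below every SG12 library of its medium, a separation that 40.8% of all entries tested showed in either direction in FBS and 32.7% in LPDS. The level in SG21 was 1.62-fold lower in FBS (log2 -0.69 ± 0.15, adjusted p = 0.00151) and 2.16-fold lower in LPDS (log2 -1.11 ± 0.15, adjusted p = 2.53e-05). The second VIM entry gave -0.81 ± 0.08 in FBS (adjusted p = 3.54e-12) and -1.20 ± 0.08 in LPDS (adjusted p = 1.67e-17). Within SG21 that entry varied less, 11288 to 11869 CPM in FBS and 10721 to 11110 CPM in LPDS. The ratio of VIM-AS1 to the second entry ran from 1.06 to 1.52 over the 24 libraries, and in LPDS it was 1.06 in SG21 replicate 1 against 1.49 and 1.46 in replicates 2 and 3, the ones on the other side of the library split. The part of the split in this ratio was not tested.

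By VIM-AS1, both wild-type controls had VIM levels like those of SG12. The second entry was called higher in SG12 than in SGCTRL in FBS (log2 0.20 ± 0.08) and LPDS (0.40 ± 0.08). Against parental cells it passed in neither medium. VIM-AS1 ranged from 23788 to 31765 CPM in parental cells in FBS, 25442 to 31615 CPM in LPDS, 21949 to 26609 CPM in SGCTRL in FBS and 23325 to 28390 CPM in LPDS. All 6 SG21 libraries, at most 16502 CPM, lay below all 18 others, of which the lowest had 21729 CPM. Of all entries tested, 0.858% had every SG21 library below every other. In the order of group means, SG12 in LPDS (30017 ± 3342 CPM, SD, n = 3) led parental cells in LPDS, parental cells in FBS, SGCTRL in LPDS, SGCTRL in FBS and SG12 in FBS (23189 ± 1675), each overlapping the next. A gap then separated SG21 in FBS (14598 ± 1424) and in LPDS (14521 ± 2788), which overlapped each other.

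CD44, the hyaluronan receptor, was lower in SG21 by a larger fold. In FBS, CD44-AS1 stood at 239.97, 241.8 and 235.7 CPM in SG12 and at 109.6, 86.9 and 117.1 CPM in SG21. In LPDS it stood at 319.5, 384.8 and 354.5 CPM in SG12 and at 124.2, 100.2 and 114.3 CPM in SG21. The lines did not overlap in either medium, and CD44 in SG21 was 2.33-fold lower in FBS (log2 -1.22 ± 0.13, adjusted p = 5.20e-11) and 3.26-fold lower in LPDS (log2 -1.70 ± 0.13, adjusted p = 3.14e-15). All 6 SG21 libraries, at most 124.2 CPM, were again below the 18 others, of which the lowest had 160.5 CPM. The highest group was SG12 in LPDS (352.9 ± 32.7 CPM), followed without overlap by parental cells in LPDS (285.6 ± 15.4) and SG12 in FBS (239.2 ± 3.11). SGCTRL in LPDS (212.8 ± 10.001), parental cells in FBS (211.8 ± 44.5) and SGCTRL in FBS (173.9 ± 6.78) came next, neighbours that overlapped. SG21 in LPDS (112.9 ± 12.04) and in FBS (104.6 ± 15.7) closed the order and overlapped each other.

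TWIST1 is a basic helix-loop-helix factor of early mesoderm that represses E-cadherin in carcinoma cells. Its entry ENSG00000232821 stood in FBS at 62.1, 54.7 and 82.1 CPM in SG12 and at 41.7, 39.4 and 36.9 CPM in SG21. In LPDS it was at 81.8, 89.8 and 88.1 CPM in SG12 and at 26.8, 17.7 and 28.2 CPM in SG21. SG21 was below SG12 in every library of both media, 1.71-fold in FBS (log2 -0.78 ± 0.17, adjusted p = 0.000424) and 3.76-fold in LPDS (log2 -1.91 ± 0.18, adjusted p = 7.40e-12). The SG21 libraries, at most 41.7 CPM, were below all others, though SGCTRL in LPDS came close with 42.4 to 55.6 CPM. Group means ran from 86.6 ± 4.23 CPM in SG12 in LPDS to 71.6 ± 9.66 in parental cells in LPDS, with no overlap between these. Next came SG12 in FBS (66.3 ± 14.2), SGCTRL in FBS (65.7 ± 9.27), parental cells in FBS (63.1 ± 11.3) and SGCTRL in LPDS (47.0 ± 7.44), all from parental cells in LPDS on overlapping the next. SG21 in FBS (39.3 ± 2.37) and SG21 in LPDS (24.2 ± 5.68) were apart from these and from each other.

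The entry named TWIST1, on the strand of the gene itself, gave other values. It stood at 82.8, 64.5 and 56.1 CPM in SG12 in FBS and at 21.0, 44.2 and 27.4 CPM in SG21 in FBS, a log2 fold change of -1.15 ± 0.20 (adjusted p = 1.01e-05). In LPDS it stood at 37.8, 46.2 and 40.9 CPM in SG12 and at 33.4, 40.5 and 36.8 CPM in SG21, which overlapped (log2 -0.23 ± 0.20, adjusted p = 0.506). If the strand is reversed throughout, this entry would hold reads of ENSG00000232821 or leaked reads of TWIST1, and the counts do not separate them.

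**Figure D2:**
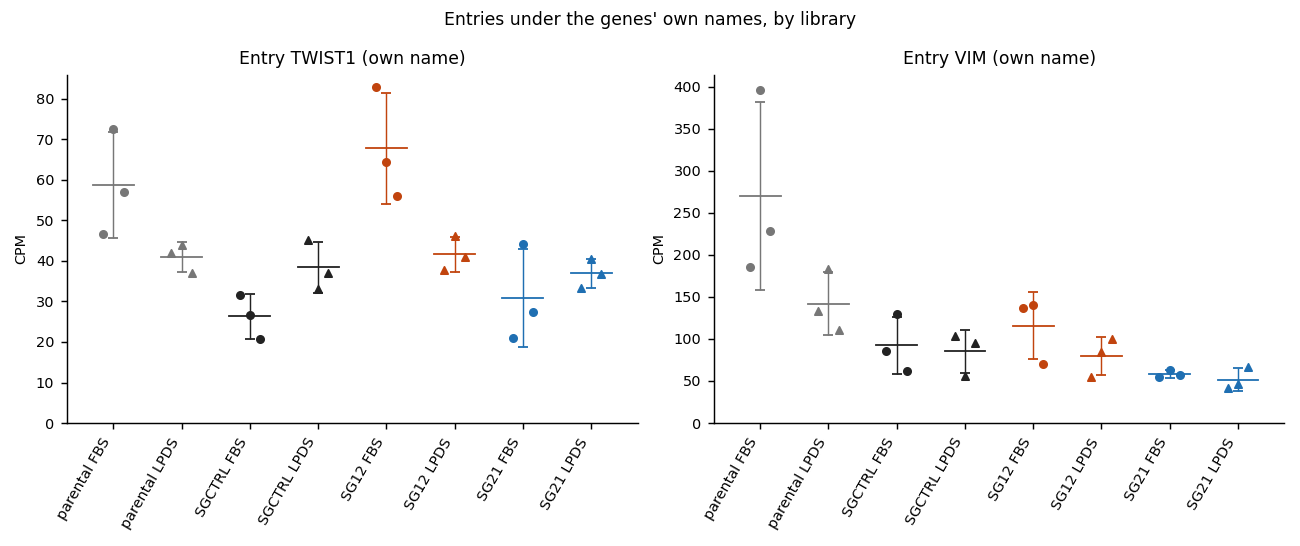
CPM of the entries named TWIST1 and VIM (vertical axes, linear from 0) in the 24 libraries by line and medium (horizontal axes; bars are means with the SD of 3 libraries). TWIST1 reaches the level of its opposite-strand entry, with SG12 in FBS between 56.1 and 82.8 CPM, while VIM stays between 41.5 and 396.6 CPM and is highest in parental cells in FBS.

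ZEB2 is a zinc-finger repressor that also silences E-cadherin. It was high in SG12, while SG21 lay among the wild-type groups. ZEB2-AS1 stood in FBS at 90.97, 108.4 and 90.4 CPM in SG12 and at 51.0, 49.8 and 42.9 CPM in SG21. Its LPDS values were 87.9, 81.9 and 81.8 CPM in SG12 and 48.9, 26.5 and 48.2 CPM in SG21. The lines did not overlap, and SG21 was 2.05-fold lower in FBS (log2 -1.04 ± 0.18, adjusted p = 1.03e-05) and 2.15-fold lower in LPDS (log2 -1.10 ± 0.19, adjusted p = 1.01e-05). All 6 SG12 libraries, at least 81.8 CPM, lay above all 18 others, of which the highest had 68.9 CPM, a position that 0.764% of the entries tested shared. After SG12 in FBS (96.6 ± 10.2 CPM) and in LPDS (83.9 ± 3.52), which did not overlap, came parental cells in LPDS (56.7 ± 11.996). SG21 in FBS (47.9 ± 4.34), SGCTRL in FBS (46.2 ± 5.78), SGCTRL in LPDS (44.0 ± 5.18), SG21 in LPDS (41.2 ± 12.7) and parental cells in FBS (35.5 ± 11.5) followed, each overlapping the next. With SG21 in LPDS replicate 1 alone, the library on the same side of the split as SG12, the fold change in LPDS was -0.81 (adjusted p = 0.0272), where the spread comes from the other groups and the lone library is assumed to vary like them.

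SPARC passed the test between the knockout lines in neither medium. CLMAT3 stood in FBS at 113.4, 129.6 and 100.7 CPM in SG12 and at 120.3, 117.0 and 117.4 CPM in SG21, with a log2 fold change of 0.02 ± 0.13 (95% interval -0.24 to 0.28, adjusted p = 0.936). In LPDS it stood at 103.9, 106.2 and 97.4 CPM in SG12 and at 96.6, 90.1 and 77.9 CPM in SG21. The lines did not overlap there, as for 32.7% of entries tested (log2 -0.27 ± 0.14, 95% interval -0.54 to -0.003, adjusted p = 0.175). The intervals of both differences leave out a 2-fold change. Over the 8 groups SPARC ran only from 131.3 ± 15.6 CPM in parental cells in LPDS to 88.2 ± 9.49 in SG21 in LPDS, and all neighbours in the order overlapped except SGCTRL in LPDS and SGCTRL in FBS.

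**Figure D3:**
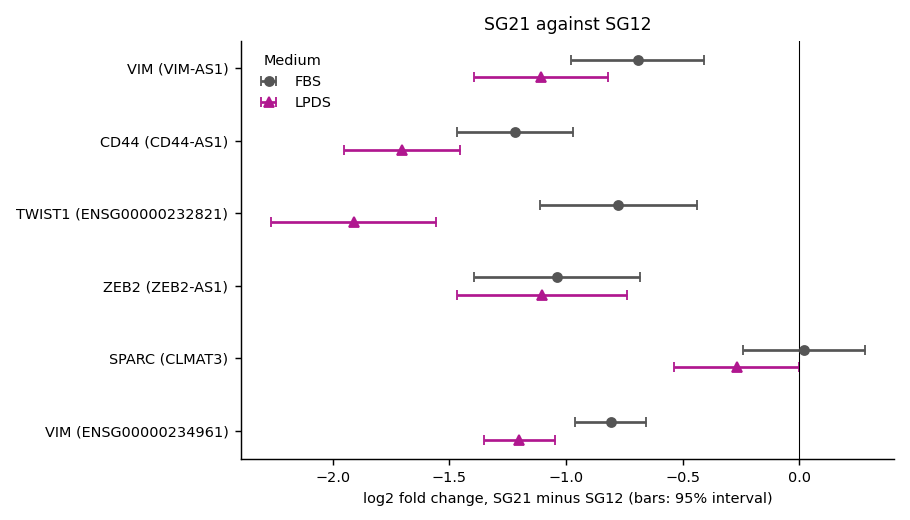
Log2 fold change of SG21 against SG12 (horizontal axis) for the 5 genes and the second VIM entry (vertical axis) in FBS (circles) and LPDS (triangles), with 95% intervals from edgeR fits to 24 libraries. All values lie below 0 except that of SPARC in FBS, and the value for TWIST1 moves from -0.78 to -1.91 between the media.

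The gap between the lines was wider in LPDS for TWIST1. The LPDS response of SG21 minus that of SG12 was -1.13 ± 0.25 for ENSG00000232821 (adjusted p = 0.00112), the 1 member of 5 to pass, where 13.1% of entries tested passed in either direction. It was -0.49 ± 0.18 for CD44 (adjusted p = 0.0595), -0.41 ± 0.20 for VIM (adjusted p = 0.207), -0.29 ± 0.19 for SPARC (adjusted p = 0.342) and -0.06 ± 0.26 for ZEB2 (adjusted p = 0.905). The second VIM entry passed at -0.39 ± 0.11 (adjusted p = 0.0101). The entry named TWIST1 went the other way, at 0.93 ± 0.29 (adjusted p = 0.0227). Corrected for the library split, the TWIST1 difference was -0.94 (adjusted p = 0.0578) and the VIM difference -0.73 (adjusted p = 0.0602). The CD44 difference passed without SG21 FBS replicate 2 (-0.53, adjusted p = 0.0475) or SG21 LPDS replicate 1 (-0.58, adjusted p = 0.0186).

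Within each line, LPDS moved few of the genes. CD44 rose in parental cells, from 239.5, 160.5 and 235.5 CPM in FBS to 301.1, 270.3 and 285.3 CPM in LPDS (log2 0.44 ± 0.12, adjusted p = 0.0252), and in SG12 (0.56 ± 0.12, adjusted p = 0.000462). It was 0.30 ± 0.12 in SGCTRL (adjusted p = 0.229) and 0.08 ± 0.13 in SG21 (adjusted p = 0.828). ZEB2 rose in parental cells, from 33.3, 25.3 and 47.9 CPM to 68.9, 44.9 and 56.3 CPM, groups that overlap (0.69 ± 0.19, adjusted p = 0.0231). TWIST1 fell in SG21 (-0.75 ± 0.19, adjusted p = 0.0113), and so did SPARC (-0.45 ± 0.13, adjusted p = 0.0439). VIM in SG12 was 0.37 ± 0.14 by VIM-AS1 (adjusted p = 0.0755) and 0.26 ± 0.08 by the second entry (adjusted p = 0.0106). Parental cells had 2 of the 5 members called, SGCTRL 0, SG12 1 and SG21 2, beside 4.55%, 2.33%, 22.5% and 3.84% of all entries. In SGCTRL, 2 of the 5 (CD44 and TWIST1) had an unadjusted p under 0.05 in edgeR, and DESeq2's Wald test called 0. For these rules the shares of all entries are not given.

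Several of these responses rest on single libraries. Without parental FBS replicate 2, whose CD44 level of 160.5 CPM was the lowest of its group, CD44 in parental cells was 0.26 (adjusted p = 0.332) and ZEB2 0.49 (adjusted p = 0.257). Both calls were also lost without parental LPDS replicate 1 or 3 (adjusted p = 0.0746 to 0.165), and that of ZEB2 without parental FBS replicate 1 (adjusted p = 0.0518). Without SG21 LPDS replicate 2, at 17.7 CPM, TWIST1 in SG21 was -0.55 (adjusted p = 0.176). SPARC in SG21 lost its call without any of 5 of the 6 libraries, and when corrected for the library split (-0.29, adjusted p = 0.648). Libraries of SG21 in LPDS lie on both sides of that split.

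**Figure D4:**
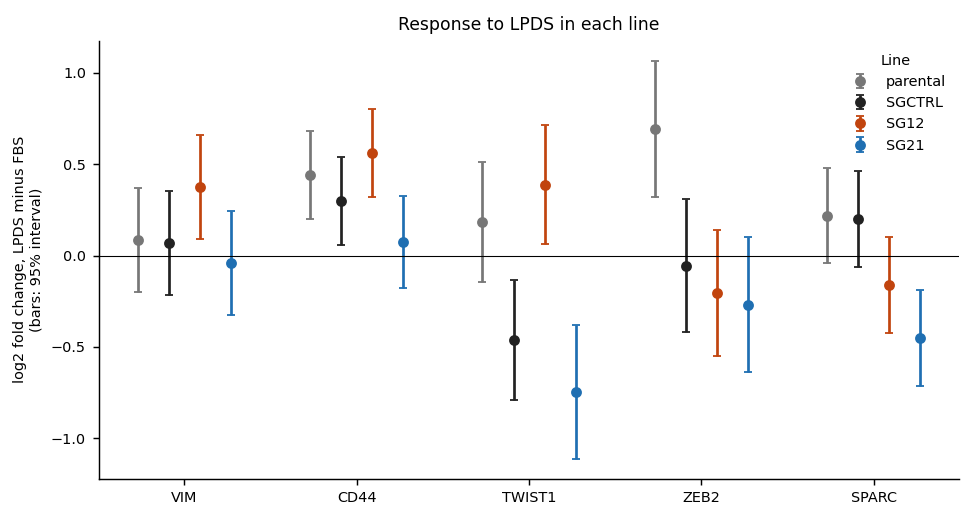
Log2 fold change of LPDS against FBS (vertical axis) in each of the 4 lines (colours) for the 5 genes (horizontal axis), with 95% intervals from edgeR. CD44 is highest in SG12 at 0.56 and parental cells at 0.44, and TWIST1 is lowest in SG21 at -0.75.

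Against the wild-type controls, SG21 was low in VIM, CD44 and TWIST1 in every comparison. In FBS the log2 fold changes against parental cells were -0.90 ± 0.15 for VIM (adjusted p = 0.000232), -1.0004 ± 0.13 for CD44 (adjusted p = 3.78e-08) and -0.67 ± 0.17 for TWIST1 (adjusted p = 0.00299), 3 of 5 members lower where 13.1% of entries were. In LPDS they were -1.03 ± 0.15, -1.36 ± 0.13 and -1.60 ± 0.18 in the same order, and SPARC was lower too (-0.59 ± 0.13, adjusted p = 0.00156), 4 of 5 members beside 5.23% of entries. Corrected for the library split, the SPARC call was lost (-0.43, adjusted p = 0.188). The FBS comparison with parental cells lies on 1 side of the library split. ZEB2 in SG21 was 0.47 ± 0.19 against parental cells in FBS (adjusted p = 0.0650) and -0.49 ± 0.19 in LPDS (adjusted p = 0.0807), and so passed in neither medium.

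VIM, CD44 and TWIST1 were also lower in SG21 against SGCTRL, a comparison that uses the same SG21 libraries as the one with parental cells and so is not independent of it. VIM was -0.77 ± 0.15 in FBS (adjusted p = 0.00138) and -0.88 ± 0.15 in LPDS (adjusted p = 0.000482). CD44 was -0.74 ± 0.13 (adjusted p = 2.28e-05) and -0.96 ± 0.13 (adjusted p = 1.62e-07), and TWIST1 was -0.74 ± 0.17 (adjusted p = 0.00160) and -1.02 ± 0.18 (adjusted p = 6.02e-05). This made 3 of 5 members lower in each medium, beside 6.69% of entries in FBS and 5.44% in LPDS, and SPARC was higher in FBS (0.41 ± 0.13, adjusted p = 0.0315), a direction that 7.35% of entries took. ZEB2 differed little, by 0.05 ± 0.19 in FBS (adjusted p = 0.912) and -0.16 ± 0.19 in LPDS (adjusted p = 0.684). All SGCTRL libraries are on the low side of the split and all SG21 libraries in FBS on the other, and the term for the split rests on SG21 in LPDS, the 1 group with libraries on both sides. With that term CD44 kept its call in FBS, while VIM was -0.31 (adjusted p = 0.674) and TWIST1 -1.04 (adjusted p = 0.129), and in LPDS VIM, CD44 and TWIST1 kept theirs. The SPARC call in FBS was lost without any 1 of the 6 libraries (adjusted p = 0.0644 to 0.115).

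In SG12, every opposite-strand member entry called against a control was higher than in that control. ZEB2 was higher in SG12 than in parental cells in FBS (1.51 ± 0.19, adjusted p = 9.89e-09) and in LPDS (0.61 ± 0.18, adjusted p = 0.0227), the 1 member of 5 to pass in each, where 12.7% and 4.56% of entries were called higher. Against SGCTRL it was 1.09 ± 0.18 in FBS (adjusted p = 5.93e-06) and 0.94 ± 0.18 in LPDS (adjusted p = 0.000196). CD44 was also higher than in SGCTRL, by 0.48 ± 0.12 in FBS (adjusted p = 0.00252) and 0.74 ± 0.12 in LPDS (adjusted p = 1.46e-05). SPARC in FBS (0.39 ± 0.14, adjusted p = 0.0277) and TWIST1 in LPDS (0.89 ± 0.17, adjusted p = 0.000132) made 3 of 5 members higher in each medium, beside 12.1% and 5.13% of entries. Corrected for the library split, none of these 6 calls against SGCTRL was kept, and the ZEB2 values were 0.61 (adjusted p = 0.306) and 0.46 (adjusted p = 0.617). The ZEB2 call against parental cells in LPDS was lost without any of 5 of the 6 libraries (adjusted p = 0.0516 to 0.184), and the SPARC call without SG12 FBS replicate 2 (0.37, adjusted p = 0.0789). VIM passed in none of the 4 comparisons of SG12 with a control, where its values ran from -0.20 to 0.23, although its second entry passed against SGCTRL in FBS (0.20 ± 0.08, adjusted p = 0.0482) and LPDS (0.40 ± 0.08, adjusted p = 0.000149).

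**Figure D5:**
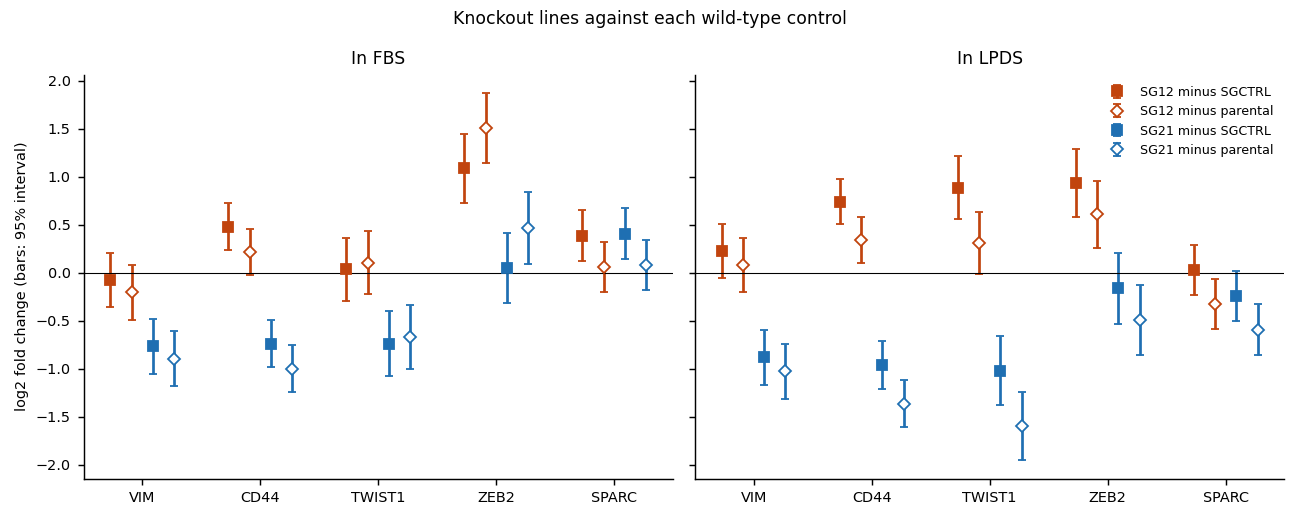
Log2 fold change of SG12 and SG21 (colours) against SGCTRL (filled squares) and parental cells (open diamonds) for the 5 genes (horizontal axis) in FBS (left) and LPDS (right), with 95% intervals from edgeR. SG21 lies below 0 for VIM, CD44 and TWIST1 against both controls, and SG12 lies above 0 for ZEB2, between 0.61 and 1.51.

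In SGCTRL against parental cells, 0 of 5 member entries passed in FBS, where 18.3% of entries did, and 0 in LPDS, where 0.811% did. The second VIM entry did pass in FBS (-0.28 ± 0.08, adjusted p = 0.00767) but not in LPDS (-0.23 ± 0.08, adjusted p = 0.137). Under the own names, VIM (-1.54), CD44 (-1.90), TWIST1 (-1.15) and SPARC (-1.90) were called lower in FBS, at adjusted p from 8.14e-05 to 0.00571. ZEB2 was not, and none of the own names passed in LPDS. At an unadjusted p under 0.05 in edgeR there were 3 of 5 members in each medium, and DESeq2's Wald test called 0 in FBS and 2 in LPDS. The shares of all entries by these rules are not given, so whether such counts are unusual is not known. CD44 in SGCTRL was -0.26 ± 0.12 in FBS (adjusted p = 0.135) and -0.40 ± 0.12 in LPDS (adjusted p = 0.1004), and its libraries did not overlap in LPDS. TWIST1 was -0.58 ± 0.17 in LPDS (adjusted p = 0.0880). The libraries of TWIST1 and SPARC did not overlap in LPDS either. Without adjustment, the LPDS intervals left out 0 for CD44 (-0.64 to -0.16), TWIST1 (-0.91 to -0.25) and SPARC (-0.61 to -0.09). Those of VIM (-0.43 to 0.14) and ZEB2 (-0.69 to 0.03) held 0. In FBS the intervals of CD44, ZEB2 and SPARC left out 0, and those of VIM and TWIST1 held it. The lack of adjusted calls therefore does not show that the controls were alike.

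Other transcription factors of the switch could be read only in part. Of 11 on the list, 3 had a usable opposite-strand entry, TWIST1, ZEB2 and ZEB1. These entries, 3 of 3, were lower in SG21 than in SG12 in both media, beside 13% of all entries tested in FBS and 8.89% in LPDS. Of them 2 are the members already described, and that of TWIST1 lies outside its coding transcript. ZEB1, a relative of ZEB2, was read through ZEB1-AS1 at 11.7 to 15.8 CPM in SG12 and 4.65 to 7.83 CPM in SG21 in FBS, without overlap (log2 -1.16 ± 0.39, adjusted p = 0.0212). In LPDS it was at 13.1 to 17.5 CPM in SG12 and 1.84 to 9.85 CPM in SG21 (log2 -1.24 ± 0.39, adjusted p = 0.0177). ZEB1 passed against neither control in either line.

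Of 18 genes for hyaluronan and its receptors, 3 were measured. Only CD44, a member already described, was lower in SG21 in FBS, beside 13% of all entries tested. In LPDS, where 8.89% were lower, HAS2, a hyaluronan synthase read through HAS2-AS1, was lower too (-1.10 ± 0.19, adjusted p = 1.70e-05). HMMR, another hyaluronan receptor with a role in mitosis, was higher in LPDS (0.47 ± 0.13, adjusted p = 0.00782). The share of entries called higher there is not given, so these counts are not read as a result about the list. HAS2 stood at 73.1 to 76.6 CPM in SG12 and at 27.01 to 42.78 CPM in SG21 in LPDS. Its response differed between the lines (-1.05 ± 0.27, adjusted p = 0.00521), as did that of HMMR (0.64 ± 0.18, adjusted p = 0.0142).

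Matrix genes were lower in SG21 in part. Of 6 measured among 25, SPARC included, 3 were lower in FBS and 2 in LPDS, beside 13% and 8.89% of all entries tested. The medians of the 6 were -0.25 and -0.37. LAMB1, a laminin chain read over 70 bases through DLD, was lower in both media (-0.76 ± 0.10, adjusted p = 7.84e-08, and -0.63 ± 0.11, adjusted p = 1.02e-05). Reads of DLD itself in that entry cannot be told apart from those of LAMB1. P4HA2, a collagen prolyl hydroxylase, was lower in FBS (-0.97 ± 0.12, adjusted p = 3.88e-09) and not called in LPDS (-0.13 ± 0.12, adjusted p = 0.518). LOXL2, a collagen cross-linking oxidase, was -0.29 ± 0.11 in FBS (adjusted p = 0.0484) and -0.59 ± 0.11 in LPDS (adjusted p = 9.90e-05). LOX and THBS1 passed in neither medium.

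Of 4 adhesion genes measured, 1 was called lower in SG21 in FBS, beside 13% of all entries tested, and 1 higher in LPDS. The share of entries called higher in LPDS is not given, so these counts are not read as a result about the list. AXL, a receptor kinase of mesenchymal carcinoma cells read over 67 bases, was lower in SG21 in FBS (-1.11 ± 0.15, adjusted p = 4.75e-08) and -0.18 ± 0.15 in LPDS (adjusted p = 0.472), and its response differed between the lines (0.93 ± 0.21, adjusted p = 0.00178). NCAM1, a neural cell adhesion molecule, was higher in SG21 in LPDS (0.47 ± 0.11, adjusted p = 0.00198) and 0.15 ± 0.11 in FBS (adjusted p = 0.325). Of 5 TGF-beta genes measured among 21, 3 were lower in FBS and 0 in LPDS, beside 13% and 8.89% of all entries tested. The 3 were LTBP2 (-1.12 ± 0.24, adjusted p = 0.000271) and LTBP1 (-0.37 ± 0.10, adjusted p = 0.00325), which hold the latent growth factor in the matrix, and ENG (-0.44 ± 0.13, adjusted p = 0.00597), a co-receptor. The difference in response did not pass for LTBP2 (adjusted p = 0.1015), LTBP1 (0.1034) or ENG (0.1885), so a difference between media was not shown for them. The ligands TGFB1 and TGFB3 passed in neither medium. Among the fibroblast markers, ACTA2, smooth muscle actin, was lower in FBS (-1.44 ± 0.14, adjusted p = 8.52e-12) and -0.14 ± 0.14 in LPDS (adjusted p = 0.572), FAP was -0.48 ± 0.15 in FBS (adjusted p = 0.0104), and THY1 was higher in both media (0.40 ± 0.11 and 0.41 ± 0.11). Of the other intermediate filaments only DES was read, at 0.54 ± 0.31 in FBS (adjusted p = 0.205).

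Among themselves, VIM, CD44 and TWIST1 varied alike over the 8 group means of log2 CPM. Pearson's r was 0.93 for VIM and CD44, 0.888 for VIM and TWIST1 and 0.864 for CD44 and TWIST1, while r with ZEB2 was 0.33 for VIM, 0.588 for CD44 and 0.557 for TWIST1. For SPARC r ran from 0.296 with VIM to 0.446 with TWIST1. The points share libraries and scaling, so these values only describe the pattern. Among 4294 entries of at least 20 CPM, the 3 most like VIM-AS1 were ENSG00000259375, over AKAP13 (r = 0.984), the second VIM entry (0.977) and SEMA4G, over MRPL43 (0.972). The nearest to CD44-AS1 were GRIN3A (0.986), RAB11B (0.978) and ENSG00000267288, over HEXIM2 (0.962), and to ENSG00000232821 they were ODAD3, over PRKCSH (0.986), ENSG00000286502 (0.965) and CRMP1, over EVC (0.940). KDM4A-AS1, over KDM4A (0.984), DNAJC14 (0.974) and ELMOD3, over RETSAT (0.973), were nearest to ZEB2-AS1. For CLMAT3 the likeness was weaker, 0.929 for ENSG00000286485, 0.882 for PEF1-AS1 and 0.873 for ENSG00000266049.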

How the data were processed

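The authors deposited raw counts of reads per gene entry for 24 libraries. The submitters' processing notes name bcl2fastq, STAR and hg38 without versions. Per the labels' protocols, a stranded kit with ribosomal depletion was used. The counting program, strand setting and annotation release are not given in the sources used here. Reads on no gene and ambiguous reads stayed out of library sizes.

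The 5 members, the 11 gene lists and the opposite-strand reading were chosen with earlier results of these data known. An entry was read as the gene on its other strand that shares 50 or more exon bases with it and holds 80% or more of all such bases, matched to GENCODE release 29 (56807 of 61578 entries matched). Levels are CPM over reads on genes, unscaled otherwise, with the SD of 3 libraries. Counts were tested with edgeR 4.0.16 in R 4.3.3: quasi-likelihood F test with robust moderation, 8 group means over 24 libraries, TMM, filterByExpr (12822 entries kept), Benjamini-Hochberg adjustment within each of 17 comparisons, threshold 0.05. SEs are the fold change over the square root of F. List genes were read where the mean exceeded 6.02 CPM. The text names every member in the comparisons described, list genes by smallest adjusted p in FBS (at most 4 a list), a few others chosen after their values were seen, and for each member the 3 most alike entries. The fit was tested on simulated data. Replicate pairs all differed beyond sampling noise (chi-square per degree of freedom at least 2.76), so none was merged. As alternatives, size factors and the Wald test of DESeq2 1.42.0 were used, other count filters, a replicate block, all aligned reads as library size, a term for the library split, the spread of the compared groups alone, each library left out, and the own-name entries. Chosen after seeing the data were a spread without robust moderation and the second VIM entry.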

Additional observations from a re-analysis of the deposited data

Results flagged for a closer look

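These 3 values stood out because the response to LPDS differed between the knockout lines by a test of the difference itself, edgeR's quasi-likelihood test of the interaction over 24 libraries. For ENSG00000232821, the TWIST1 reading, the log2 response of SG21 minus that of SG12 was -1.13 (adjusted p = 0.00112). The mean of SG12 was 66.3 CPM in FBS and 86.6 CPM in LPDS, which did not pass on its own (adjusted p = 0.0852), while SG21 fell from 39.3 to 24.2 CPM (adjusted p = 0.0113). For the entry named TWIST1 the difference was 0.925 (adjusted p = 0.0227), the opposite sign, with SG12 falling from 67.8 to 41.6 CPM (adjusted p = 0.00688) and SG21 at 30.9 and 36.9 CPM (adjusted p = 0.647). For ENSG00000234961, the second VIM entry, the difference was -0.391 (adjusted p = 0.0101), with SG12 rising from 20099 to 24021 CPM (adjusted p = 0.0106) and SG21 at 11663 and 10874 CPM (adjusted p = 0.387). The entries of the TWIST1 locus overlap, and which RNA each one holds was not tested.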

How the results depend on the processing

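In SG21 against SG12, VIM, CD44, TWIST1 and ZEB2 kept direction and call under all 15 alternatives in FBS and all 16 in LPDS that read the same entry, leave-one-out fits included; 1 of the LPDS alternatives keeps a single SG21 library, with the spread taken from the other groups. In FBS and LPDS their log2 values ran from -0.86 to -0.65 and -1.44 to -0.99 for VIM, -1.41 to -1.19 and -1.81 to -1.53 for CD44, -0.98 to -0.61 and -2.03 to -1.71 for TWIST1, and -1.16 to -1.03 and -1.29 to -0.80 for ZEB2. SPARC in FBS, near 0, changed sign without a call: -0.02 with DESeq2 size factors and with its Wald test (-0.02042 and -0.02032), -0.0074 with the spread of the compared groups alone, and -0.07954 to 0.03214 with 1 library left out. The cause of this and of the changes that follow was not tested.

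Under the genes' own names (2 to 59 reads a library for CD44, ZEB2 and SPARC, 63 to 247 for TWIST1 and 113 to 1349 for VIM), calls of SG21 against SG12 were lost for CD44 (-1.43) and ZEB2 (-0.83) in FBS and for VIM (-0.69), CD44 (-0.99), TWIST1 (-0.23) and ZEB2 (-1.27) in LPDS, and SPARC was -0.95 in FBS and 0.21 in LPDS. The difference in response between the lines changed sign to 0.32 (VIM), 0.44 (CD44), 0.93 (TWIST1) and 1.16 (SPARC). So did SG21 against SGCTRL in FBS for TWIST1 (0.25) and SPARC (-0.57), and LPDS against FBS for CD44 (-1.24) and ZEB2 (-0.20) in parental cells, VIM in SG12 (-0.54), and TWIST1 (0.22) and SPARC (0.20) in SG21. In FBS the own-name entries of VIM (-1.18, adjusted p = 0.0162), CD44 (-1.24, adjusted p = 0.0496) and SPARC (-1.52, adjusted p = 0.00990) were called lower in SG12 than in parental cells by edgeR. That of TWIST1 was called higher in SG12 than in SGCTRL in FBS (1.40, adjusted p = 4.48e-07).

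Correcting for the library split moved VIM from -0.41 to -0.73 in the difference in response, and turned ZEB2 to 0.24 in the difference in response and to -0.43 in SG21 against SGCTRL in FBS. It left 0 members called for the difference in response, 0 for SG12 against SGCTRL in FBS and in LPDS, 1 for SG21 against SGCTRL in FBS and 0 for LPDS in SG21, and made it 2 for SG12 against parental cells in LPDS and 2 for LPDS in SG12. The replicate numbers do not pair the samples: 0 of 16 comparisons had every same-numbered pair correlated over 0.1 (r from -0.128 to 0.196). With the replicate block 2 members passed for the difference in response (CD44 at -0.49 joined TWIST1) and 2 for SG12 against parental cells in LPDS, and no other count moved by over 1.5 times. The shares of all entries called with the split term or the block are not given. These counts are therefore not read as results about the members.

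Other settings moved counts where few members passed. The shares of all entries called under each setting are not given here either, so whether such counts are unusual is not known. With the spread of the compared groups alone the count was 3 for SG12 against parental cells in LPDS, 2 for SGCTRL against parental cells in LPDS, 0, 2, 3 and 1 for LPDS in parental cells, SGCTRL, SG12 and SG21. A stricter count filter gave 2 for the difference in response. SGCTRL against parental cells in FBS had 1 with DESeq2 size factors and 1 with all aligned reads as library size, and in LPDS 1 with the latter and 2 with DESeq2's Wald test. Without robust moderation LPDS gave 2 in SG12 and 1 in SG21, where no count filter and all aligned reads each gave 1 too. With 1 library left out, counts ran from 1 to 2 for the difference in response, 1 to 2 for SG12 against parental cells in FBS, 0 to 1 in LPDS, 0 to 1 for SGCTRL against parental cells in FBS, 0 to 2 for LPDS in parental cells, 1 to 2 in SG12 and 0 to 2 in SG21. ZEB2 then ran from -0.24 to 0.26 in the difference in response, from -0.01358 to 0.1377 in SG21 against SGCTRL in FBS and from -0.34 to 0.07708 in LPDS. Depth limits TWIST1 most, with 63 to 73 reads a library in SG21 in LPDS.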

Other observations

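Of genes that accompany the 5 in the mesenchymal lists, HAS2 was higher in SG12 than in both controls in each medium by the test. Its mean level in LPDS was 75.2 ± 1.88 CPM (SD, n = 3) in SG12, against 29.5 ± 5.16 CPM in parental cells and 33.1 ± 2.08 CPM in SGCTRL. The edgeR log2 fold change of SG12 was 1.38 ± 0.19 (SE) against parental cells (adjusted p = 9.18e-07) and 1.20 ± 0.19 against SGCTRL (adjusted p = 7.79e-06). In FBS the values were 0.89 ± 0.20 (adjusted p = 0.000465) and 0.59 ± 0.19 (adjusted p = 0.0194), but SG12 (42.09 to 67.12 CPM) overlapped SGCTRL (27.84 to 43.58 CPM) and its mean of 53.5 CPM was near the 52.2 CPM of SG21. SG21 was also higher in HAS2 than parental cells in FBS (0.84 ± 0.20, adjusted p = 0.00117) but not by the test in LPDS (0.28 ± 0.20, adjusted p = 0.430), and against SGCTRL in FBS it was 0.53 ± 0.19 (adjusted p = 0.0528).

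LAMB1 was higher in SG12 than in both controls in FBS, by 0.78 ± 0.10 against SGCTRL (adjusted p = 6.38e-08) and 0.60 ± 0.10 against parental cells (adjusted p = 1.39e-05), with means of 585.5 CPM in SG12 and 346.3 and 398.4 CPM in the controls. In LPDS SG21 was the line apart, lower at -0.44 ± 0.11 against SGCTRL (adjusted p = 0.00305) and -0.49 ± 0.11 against parental cells (adjusted p = 0.000783). HAS2 and LAMB1 were singled out after their values were seen, and SGCTRL lies on the other side of the library split from SG12. The LAMB1 values come from the entry DLD, which overlaps LAMB1 over 70 bases and may also hold reads of DLD itself.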
